A study of Mus musculus with 6 samples.

Results

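The miR-17-92 cluster is a row of 6 miRNA hairpins that lie in a single host transcript, Mir17hg, and its mature miRNAs were followed here in the livers of mice fed a normal or a high-fat diet. The members were the rows named for its mature strands, and 9 of the 1546 mature miRNAs in the deposited values were found this way, all 9 looked for by name. Both groups were male C57BL/6 mice of the same age, 8 weeks at the start, with no engineered allele described. The NC mice were kept on a normal diet and the MAFLD mice on a high-fat diet for 16 weeks, which gives a diet-induced model of metabolic dysfunction-associated fatty liver disease. The study kept 6 mice on each diet, and 3 livers of each group were sequenced, with 1 library per replicate. The protocols in the labels also describe HepG2 cells, but the tissue of every sample is given as liver. The 4 hepatocyte miRNAs examined, miR-122-5p among them, summed to 102722 to 167007 CPM in the NC libraries and 147868 to 176512 CPM in the MAFLD libraries. None of the 6 libraries is labelled HepG2, so this sum was not compared with that of HepG2 cells.

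A cluster of this kind is copied as 1 long primary transcript. Drosha cuts the hairpins out of it, Dicer cuts each hairpin to a short duplex, and mostly 1 strand of the duplex is kept in an Argonaute protein. Bases 2 to 8 of the kept strand, the seed, pair with target mRNAs. The miR-17-92 transcript is known as a target of Myc and E2F factors, as a driver of lymphoma, and as a requirement for lung, heart and B cell development. Its miR-17 and miR-20a strands are known for repression of E2f1 and of the pro-apoptotic gene Bcl2l11. Hairpins of 1 transcript share its transcription, and cutting, loading and decay then set how much of each strand remains.

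In the mouse reference GRCm38, the 6 hairpins lie between positions 115043671 and 115044506 on the plus strand of chromosome 14, a span of 836 bases. They are ordered Mir17, Mir18, Mir19a, Mir20a, Mir19b-1 and Mir92-1, with 35 to 96 bases between neighbours. All 6 fall within exon 2 of Mir17hg (ENSMUSG00000089726.2), a long non-coding RNA of 2 exons that runs from 115042879 to 115046727 in GENCODE M21. The hairpin Mir17 starts 792 bases after the start of Mir17hg and Mir92-1 starts 1548 bases after it. Mir17 itself (115043671 to 115043754, 84 nt) is shown as an example, from RefSeq's annotation of GRCm38.p6, with its 5p and 3p strands in capitals, because both strands of this hairpin had reads in all 6 libraries.
Mir17: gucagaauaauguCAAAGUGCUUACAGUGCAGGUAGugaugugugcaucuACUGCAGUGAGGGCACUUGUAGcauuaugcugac

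The 9 mature strands carry 7 seeds, and the 5 strands that gave nearly all of the reads carry only 3 of them. The RefSeq sequences are written 5′ to 3′ with the seed in capitals, since the comparisons that follow set strands of the same seed against each other.
mmu-miR-17-5p: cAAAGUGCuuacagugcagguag
mmu-miR-20a-5p: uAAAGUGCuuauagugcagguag
mmu-miR-18a-5p: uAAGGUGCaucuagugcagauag
mmu-miR-19a-3p: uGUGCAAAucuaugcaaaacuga
mmu-miR-19b-3p: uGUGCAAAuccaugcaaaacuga
mmu-miR-92a-3p: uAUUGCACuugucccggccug
mmu-miR-17-3p: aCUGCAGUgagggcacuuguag
mmu-miR-18a-3p: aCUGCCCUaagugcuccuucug
mmu-miR-20a-3p: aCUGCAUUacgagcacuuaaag
Counted from the 5′ end, miR-20a-5p differs from miR-17-5p at 2 bases (C1U and C12U), both outside the seed. The 2 miR-19 strands differ at 1 base only (U11C from miR-19a-3p to miR-19b-3p). MiR-18a-5p departs from miR-17-5p inside the seed (A4G), and at 5 bases outside it. The strands miR-19b-3p and miR-92a-3p are also encoded on chromosome X, by Mir19b-2 and Mir92-2 on the minus strand, with the same mature sequence. Reads of these 2 members therefore cannot be divided between the 2 loci.

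The libraries held 1336935 to 2549598 reads on miRNAs in the NC group and 1534569 to 4685712 in the MAFLD group, recovered from CPM, that is, reads scaled to the same total on all listed miRNAs in each library. A level of 3 reads, taken as the smallest the depth can show, was 0.640 to 2.24 CPM. The most abundant miRNA, miR-148a-3p, took 71.4%, 63.3% and 48.5% of the reads in NC replicates 1, 2 and 3 and 46.8%, 56.7% and 51.6% in MAFLD replicates 1, 2 and 3. A CPM value of any other miRNA moves with that share, and over all 501 miRNAs tested the log2 fold change in MAFLD against NC livers had a median of 0.43. In bulk liver, fewer cells of a type and less RNA per cell cannot be told apart. The 95% Wilson intervals given for single libraries cover counting error only.

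The summed level of the 9 members was higher in every MAFLD liver than in any NC liver. It was 438, 433 and 787 CPM in NC replicates 1, 2 and 3 and 1508, 926 and 1161 CPM in MAFLD replicates 1, 2 and 3. The means were 553 ± 203 and 1198 ± 293 CPM (SD, n = 3 each), a ratio of 2.17. These sums rest on 680 to 1117 reads in the NC libraries and 1782 to 4338 reads in the MAFLD libraries. The groups also stayed apart when miR-148a-3p was taken out of the total, at 0.153%, 0.118% and 0.153% of the remaining reads in NC and 0.283%, 0.214% and 0.240% in MAFLD livers. NC replicate 3, the NC library with the smallest miR-148a-3p share, stood above the other NC libraries by CPM and level with NC replicate 1 on the second measure.

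Of the 9 members, 7 had a mean of at least 1 CPM and were tested with limma, and miR-18a-3p and miR-20a-3p did not reach it. The 7 tested members all had log2 fold changes above 0, with a median of 1.04. After Benjamini-Hochberg adjustment over the 501 miRNAs, 0 of the 7 passed 0.05, against 0.200% of all miRNAs tested. Without adjustment, 4 of the 7 were higher in MAFLD livers at a p under 0.05 (miR-92a-3p, miR-20a-5p, miR-17-5p and miR-19b-3p). Of all 501 miRNAs tested, 13.4% were higher at that level. In a fit limited to the 238 that averaged 10 CPM or more, 52 were higher at that level. The same 4 members were among them, of 5 members kept, and the median log2 fold change of all 238 was 0.56. The members lie in 1 transcript and are not independent, so their count cannot be weighed as 7 separate tests. For 5 of the 7, every MAFLD value lay above every NC value, against 15.2% of all miRNAs tested. Each of those 5 had an exact permutation p of 0.1, which is the smallest possible with 3 against 3 livers. Leaving out NC replicate 3 brought those 4 members past the adjusted threshold, against 22.8% of all miRNAs tested (114 of 501). DESeq2 on the recovered reads called 1 of the 7 members, miR-92a-3p, at a log2 fold change of 0.71 and an adjusted p of 0.0177, against 5.59% of all miRNAs tested (28 of 501).

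**Figure D1:**
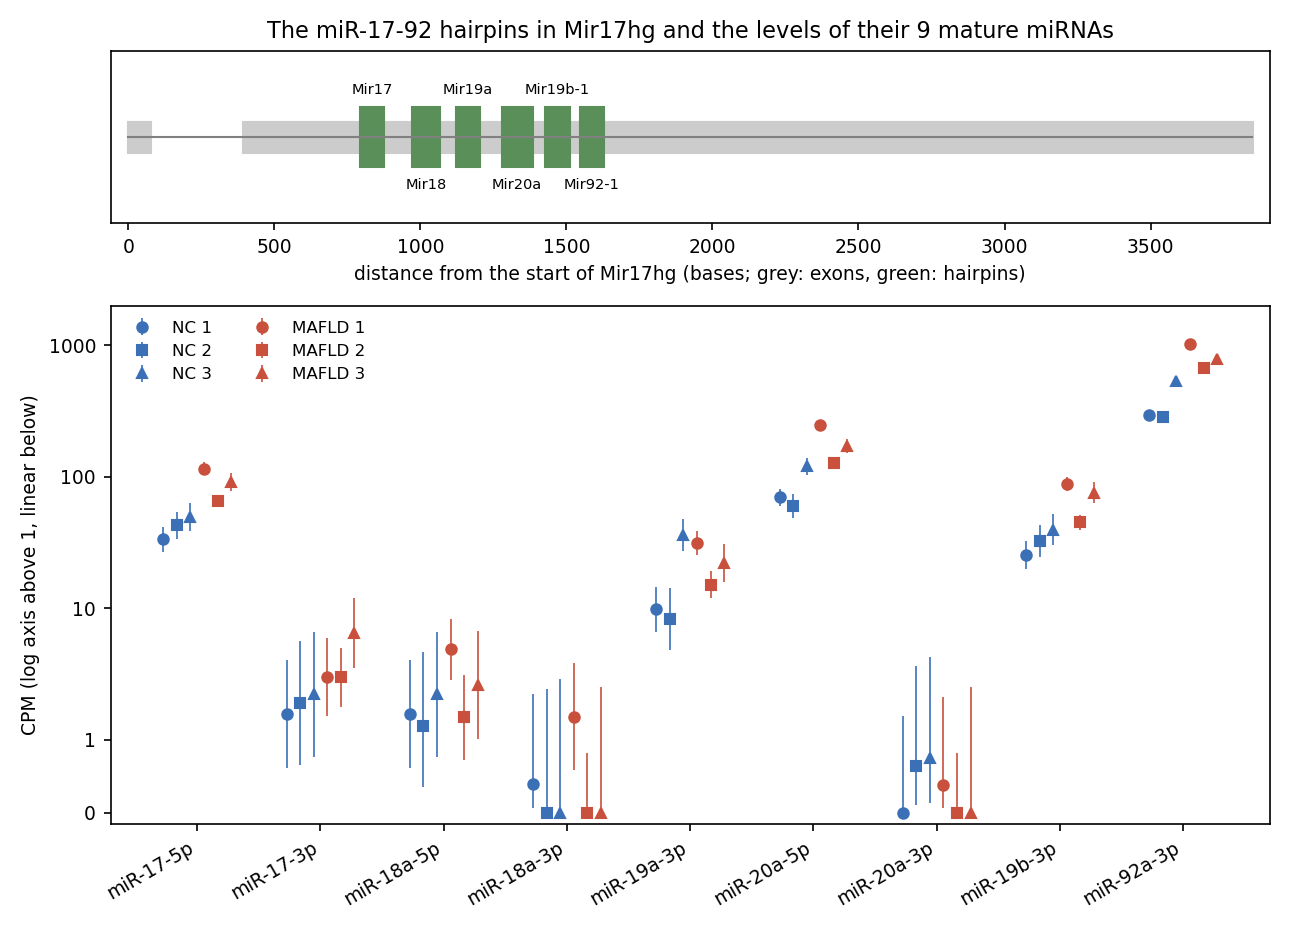
Top, the exons of Mir17hg (grey) and the 6 hairpins (green) by distance from the start of Mir17hg in bases. Bottom, the CPM of the 9 mature members in each library (NC blue, MAFLD red, symbols for replicates 1 to 3), on an axis that is logarithmic above 1 CPM and linear below, with bars for 95% Wilson intervals of counting error. MiR-92a-3p lies highest in all 6 libraries, at 286 to 1018 CPM, and the MAFLD values lie above the NC values for 5 of the 7 tested members but not for miR-18a-5p and miR-19a-3p.

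Of the members, miR-92a-3p was the most abundant and, among those tested, the one with the smallest moderated limma p. It gave 296, 286 and 537 CPM in NC livers and 1018, 668 and 792 CPM in MAFLD livers. The lowest MAFLD value lay above the highest NC value, that of NC replicate 3. The means of 373 ± 142 and 826 ± 178 CPM (SD, n = 3) correspond to a log2 fold change of 1.19 (SE 0.36, 95% interval 0.41 to 1.96) on the log2(CPM + 1) scale. The limma p was 0.00506 and the adjusted p was 0.152, which placed the miRNA at rank 15 of 501. Its unadjusted p stayed under 0.05 in 18 of 18 alternative settings, and its log2 fold change ran from 0.66 to 1.48 across them. In limma without moderation its p was 0.0259, and that of miR-17-5p was smaller, at 0.0192.

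The second member by level, miR-20a-5p, belongs to the miR-17 seed group, a set of strands known to act on E2f1 and cell-cycle genes. Its values were 69.8, 59.9 and 119.7 CPM in NC livers and 246, 128 and 171 CPM in MAFLD livers. NC replicate 3 and MAFLD replicate 2 came close, with 95% counting intervals that overlap in the plot of levels, and the other MAFLD livers were above all NC livers. The means were 83.1 ± 32.0 and 182 ± 59.7 CPM (SD, n = 3), with a log2 fold change of 1.13 (SE 0.42). The limma adjusted p was 0.208, from an unadjusted p of 0.0161.

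Its near-twin miR-17-5p, made from the first hairpin and with the same seed, was lower in level with a like fold change. Its NC livers had 33.3, 42.7 and 49.4 CPM and its MAFLD livers had 115, 65.3 and 91.2 CPM. The groups did not overlap, and here NC replicate 3 did not stand away from the other NC livers. Mean levels were 41.8 ± 8.05 and 90.4 ± 24.8 CPM (SD, n = 3). The log2 fold change was 1.08 (SE 0.41, 95% interval 0.19 to 1.96), with a limma adjusted p of 0.212 from an unadjusted p of 0.020.

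The 2 miR-19 strands, which share a seed, gave different pictures. MiR-19b-3p was at 25.5, 32.5 and 39.6 CPM in NC livers and 88.2, 45.0 and 75.6 CPM in MAFLD livers, so that the groups did not overlap. Its log2 fold change was 1.04 (SE 0.43), with a limma adjusted p of 0.223 from an unadjusted p of 0.0297. MiR-19a-3p was at 9.81, 8.28 and 35.9 CPM in NC livers and 31.5, 15.2 and 22.2 CPM in MAFLD livers. Its highest value of the 6 libraries was that of NC replicate 3, so the groups overlapped. The log2 fold change of miR-19a-3p was 0.57 (SE 0.56), with a limma adjusted p of 0.584, and it was 1.20 without NC replicate 3.

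The last of the 6 main strands, miR-18a-5p, was scarce although its hairpin lies between those of miR-17 and miR-19a. It had 4, 2 and 3 reads in NC livers and 13, 7 and 4 reads in MAFLD livers, which is 1.57, 1.27 and 2.24 CPM against 4.88, 1.49 and 2.61 CPM. Apart from MAFLD replicate 1, the values of both groups lay close together and overlapped. The log2 fold change was 0.49 (SE 0.57), with a limma adjusted p of 0.653. Its 95% interval of fold change held both 0 and the value of miR-92a-3p, so at this depth neither could be told from the other.

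Passenger strands were near the smallest level that the depth can show. MiR-17-3p had 4, 3 and 3 reads in NC livers and 8, 14 and 10 reads in MAFLD livers. In CPM these were 1.57, 1.91 and 2.24 against 3.00, 2.99 and 6.52, so the MAFLD values were all above the NC values. The log2 fold change was 0.77 (SE 0.55), with a limma adjusted p of 0.447. MiR-18a-3p had 1 read in NC replicate 1, 4 reads in MAFLD replicate 1 and 0 reads in the other 4 libraries. MiR-20a-3p had 1 read in each of NC replicates 2 and 3 and MAFLD replicate 1, and 0 reads elsewhere. For these 2 strands no difference was detectable at this depth.

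**Figure D2:**
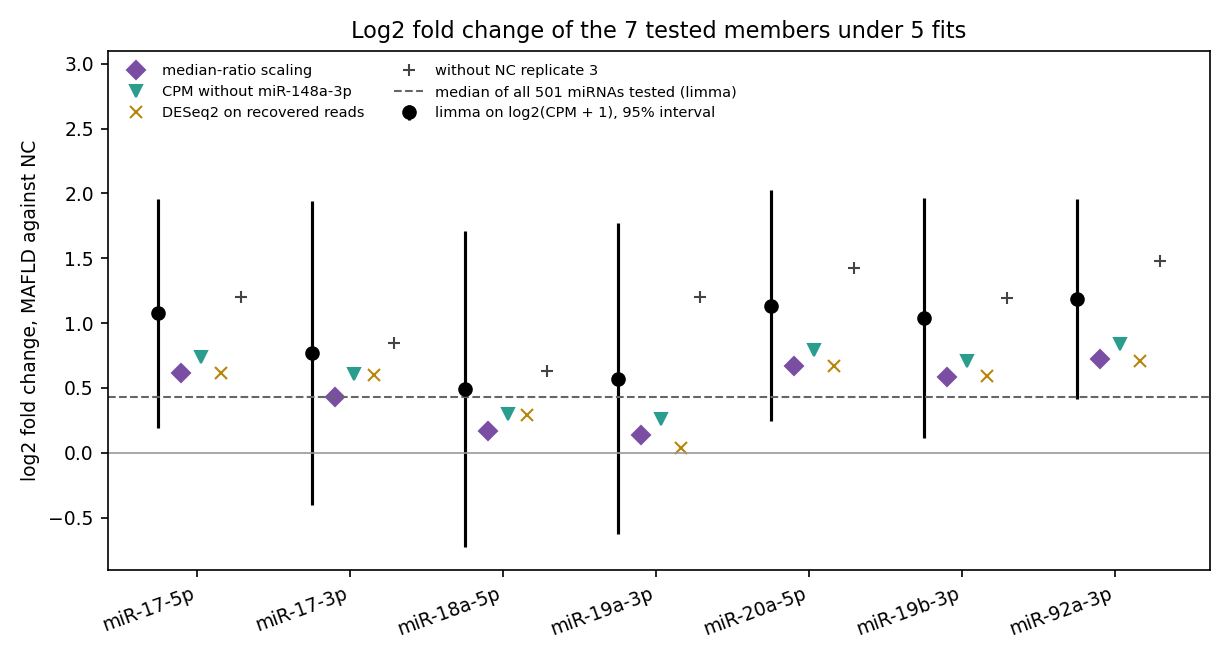
Log2 fold change of the 7 tested members in MAFLD against NC livers. Black points and bars show limma on log2(CPM + 1) with 95% intervals, coloured symbols show 3 other scalings or tests and the fit without NC replicate 3, and the dashed line is the median of all 501 miRNAs tested by limma, 0.43. All 7 members lie above 0 under all 5 fits, and the values under median-ratio scaling and DESeq2 are lower than the CPM values for all 7.

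The size of the difference depended on how the libraries were scaled, and its direction did not. With median-ratio scaling the median log2 fold change of the 7 members was 0.58, with CPM computed without miR-148a-3p it was 0.71, and with DESeq2 it was 0.60. The median over all miRNAs moved with it, to 0.044, 0.16 and -0.0049. The members' median minus that of all miRNAs was 0.61 by CPM and 0.54, 0.55 and 0.60 under these 3 scalings. Across the 18 alternatives this distance lay between 0.49 and 0.89, and no tested member had a log2 fold change under 0 in any of them. The lowest single value was 0.037, for miR-19a-3p with DESeq2.

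The make-up of the cluster's reads was nearly the same in both groups. MiR-92a-3p supplied 66.0% to 72.1% of the reads of the 9 members, at 67.3% ± 1.14 in NC and 69.3% ± 2.48 in MAFLD livers (SD, n = 3). MiR-20a-5p supplied 13.8% to 16.3%, miR-17-5p 6.27% to 9.85%, miR-19b-3p 4.86% to 7.50% and miR-19a-3p 1.64% to 4.56%. For all 9 members the shares of the 2 groups overlapped. The order of the first 5 strands was the same in 6 of 6 libraries, miR-92a-3p above miR-20a-5p, miR-17-5p, miR-19b-3p and miR-19a-3p. Below them miR-17-3p was above miR-18a-5p in 3 of 6 libraries, so those neighbours were not separated. Since strands ligate to adapters with unequal efficiency in small RNA sequencing, the order is one of read numbers and not of molecules.

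**Figure D3:**
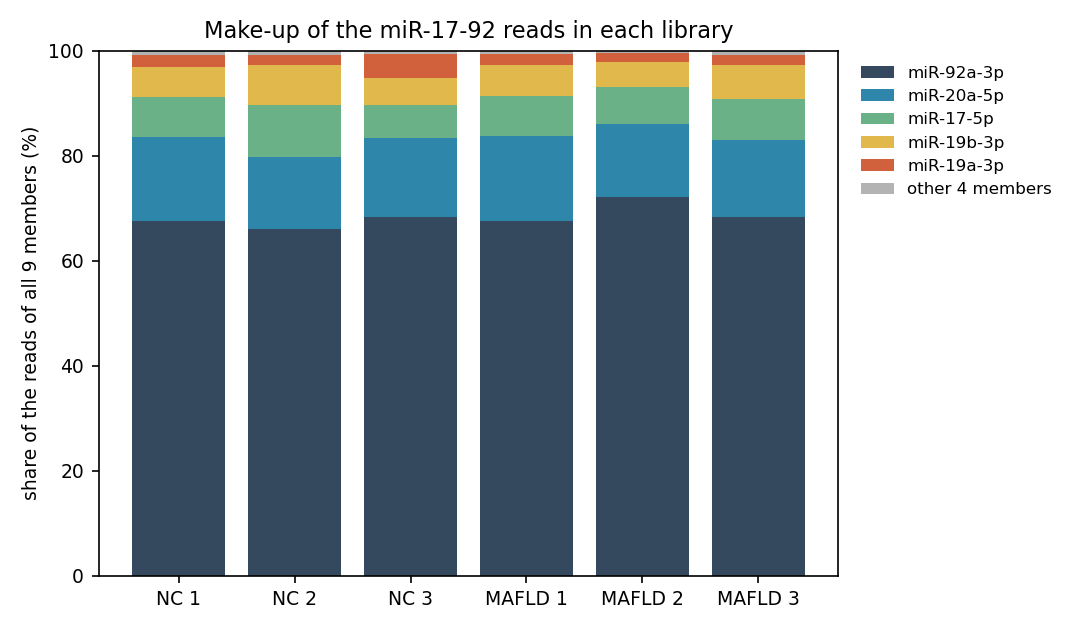
Share of the reads of all 9 members, in percent, taken by each of the 5 most abundant members and by the other 4 together, in each library. MiR-92a-3p takes 66.0% to 72.1% in every library, and the widest miR-19a-3p segment, 4.56%, is that of NC replicate 3.

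Ratios of reads within a library do not depend on the library's total, and 15 of them could be formed among the 6 main strands, each as log2 of reads with 0.5 added. The ratio of miR-17-5p to miR-19b-3p was steady, at 1.31, 1.31 and 1.24 in NC livers and 1.30, 1.45 and 1.21 in MAFLD livers. Likewise miR-20a-5p was 0.236, 0.210 and 0.223 of miR-92a-3p in NC livers and 0.242, 0.192 and 0.216 in MAFLD livers. These 4 strands come from the first hairpin and the last 3, and for both ratios the groups overlapped. For 2 of the 15 ratios the groups did not overlap, miR-18a-5p and miR-19a-3p each over miR-20a-5p, both lower in MAFLD livers. With labels given at random, 3 against 3 livers separate fully in either direction with a probability of 0.1. The count of 2 in 15 is near that share, and the ratios reuse the same strands. The ratio of miR-19a-3p to miR-20a-5p was 0.143, 0.143 and 0.302 in NC livers and 0.129, 0.119 and 0.131 in MAFLD livers. The difference was -0.54 on the log2 scale, with an exact permutation p of 0.1 and 0.412 after adjustment over all 33 ratios formed. It shrank to -0.18 without NC replicate 3. The ratio to miR-18a-5p rests on 2 to 13 reads of that strand in a library.

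In NC replicate 3, miR-19a-3p was high relative to its seed mate. There the ratio of miR-19a-3p to miR-19b-3p was 0.907, and in the other 5 libraries it was 0.262 to 0.389. Of the reads on the 2 strands in that library, 47.5% were miR-19a-3p (48 reads against 53, 95% Wilson interval 38.1% to 57.2%). The highest upper bound in the other libraries was 37.8%, in NC replicate 1, so the excess was larger than counting error. The difference between groups in this ratio was -0.45 on the log2 scale with NC replicate 3 and 0.047 without it.

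The strand ratios of the hairpins did not separate the groups where the reads allowed a comparison. MiR-17-5p exceeded miR-17-3p by 19.0, 19.3 and 19.0 in NC livers and by 36.1, 21.1 and 13.4 in MAFLD livers, after 0.5 was added to the reads. The log2 difference of 0.18 had an exact permutation p of 0.7. MiR-20a-5p over miR-20a-3p was the 1 strand ratio of 6 whose groups did not overlap, higher in MAFLD, and it rests on 0 or 1 read of miR-20a-3p. A count of 1 in 6 is near the share of 0.1 that random labels give. The other strand of the Mir92-1 hairpin, miR-92a-1-5p, is not among the 9 and had 0, 0 and 0.748 CPM in the NC replicates and 1.88, 1.71 and 1.95 CPM in the MAFLD replicates. Unlike miR-92a-3p, it comes from the chromosome 14 locus only. It rests on 0, 0 and 1 reads in NC livers and 5, 8 and 3 reads in MAFLD livers. Its mean of 1.05 CPM passed the filter only through the MAFLD livers, as its NC mean was 0.249 CPM. The separation of its groups and its log2 fold change of 1.24 (limma adjusted p 0.284) therefore cannot show a change at that locus.

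Strands of the same seed are also made from related clusters, of which miR-106b-25 was well covered in these livers. That cluster, which lies in an intron of the replication gene Mcm7, gives miR-106b-5p and miR-93-5p with the miR-17 seed and miR-25-3p with the miR-92a seed. They are shown with the seed in capitals so that they can be set beside the members.
mmu-miR-93-5p: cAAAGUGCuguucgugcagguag
mmu-miR-106b-5p: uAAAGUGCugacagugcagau
mmu-miR-25-3p: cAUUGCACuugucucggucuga
From miR-92a-3p to miR-25-3p, the bases that differ over the shared length are U1C, C14U and C18U, all outside the seed. The 6 listed strands of miR-106b-25 summed to 403, 396 and 742 CPM in NC livers and 924, 661 and 817 CPM in MAFLD livers. Of its 5 tested strands, 4 had a log2 fold change above 0, and their median was 0.73. At an unadjusted p under 0.05, 0 passed, against 13.4% higher and 4.59% lower of all miRNAs tested. None had groups that did not overlap, against 15.2% of all that were higher without overlap. For miR-25-3p, miR-93-5p and miR-106b-5p, only NC replicate 3 lay above MAFLD replicate 2 (477 against 440, 171 against 147 and 44.9 against 38.4 CPM). These counts alone do not set the 2 clusters apart. MiR-25-3p had a log2 fold change of 0.73 with a limma adjusted p of 0.304.

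Set against miR-25-3p in the same library, miR-92a-3p was higher in every MAFLD liver. The ratio of miR-92a-3p to miR-25-3p was 1.22, 1.10 and 1.13 in NC livers and 1.66, 1.52 and 1.57 in MAFLD livers. The difference of 0.46 on the log2 scale, a ratio of 1.38, was several times the spread within groups (SD 0.079 in NC and 0.063 in MAFLD). As a share of the reads of both strands, miR-92a-3p took 55.0%, 52.4% and 52.9% in NC livers and 62.3%, 60.3% and 61.1% in MAFLD livers. The highest upper bound of a 95% Wilson interval in NC was 57.6% and the lowest lower bound in MAFLD was 58.9%, so the groups stayed apart beyond counting error. The exact permutation p was 0.1, the smallest possible here, and 0.412 after adjustment over the 33 ratios. With any 1 library left out the difference lay between 0.43 and 0.51. The groups overlapped in the ratios of miR-92a-3p to its other seed mates. To miR-32-5p the ratio was 23.2, 9.46 and 14.0 in NC livers and 18.4, 19.3 and 15.1 in MAFLD livers, a log2 difference of 0.27 with an exact permutation p of 0.6, and the difference was -0.042 without NC replicate 2. MiR-92b-3p and miR-363-3p were scarce, and the exact permutation p of the ratios to them was 0.5 and 0.4.

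For the miR-17 seed, miR-20a-5p was likewise higher against both of its miR-106b-25 mates in all MAFLD livers. Its ratio to miR-93-5p was 0.764, 0.735 and 0.702 in NC livers and 1.18, 0.871 and 0.822 in MAFLD livers, a log2 difference of 0.37. Its ratio to miR-106b-5p was 3.22, 2.74 and 2.65 in NC livers and 4.57, 3.33 and 3.34 in MAFLD livers, a log2 difference of 0.38. The 2 groups came close in both ratios, with MAFLD replicate 1 the highest library. Without MAFLD replicate 1 the differences were 0.21 and 0.22, and the exact permutation p of each was 0.1 with all libraries. MiR-17-5p differed less clearly, at 0.366, 0.525 and 0.291 of miR-93-5p in NC livers and 0.552, 0.444 and 0.440 in MAFLD livers. There the groups overlapped because of NC replicate 2, and the exact permutation p was 0.3. The seed-mate ratios were added after values had been seen. They reuse the same members and mates and are not independent, so their count cannot be weighed against the share of 0.1 that random labels give. Of the 12 formed, 5 had groups that did not overlap. Besides the 3 described, the 2 others were the ratios of miR-17-5p and miR-20a-5p to miR-20b-5p, both lower in MAFLD livers. MiR-20b-5p had 0 reads in all NC livers, so the added constant sets these ratios, and the log2 differences of -1.71 and -1.66 became -0.85 and -0.80 with 1 added in place of 0.5. Against miR-106a-5p the groups overlapped for both members, with an exact permutation p of 0.5 each.

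**Figure D4:**
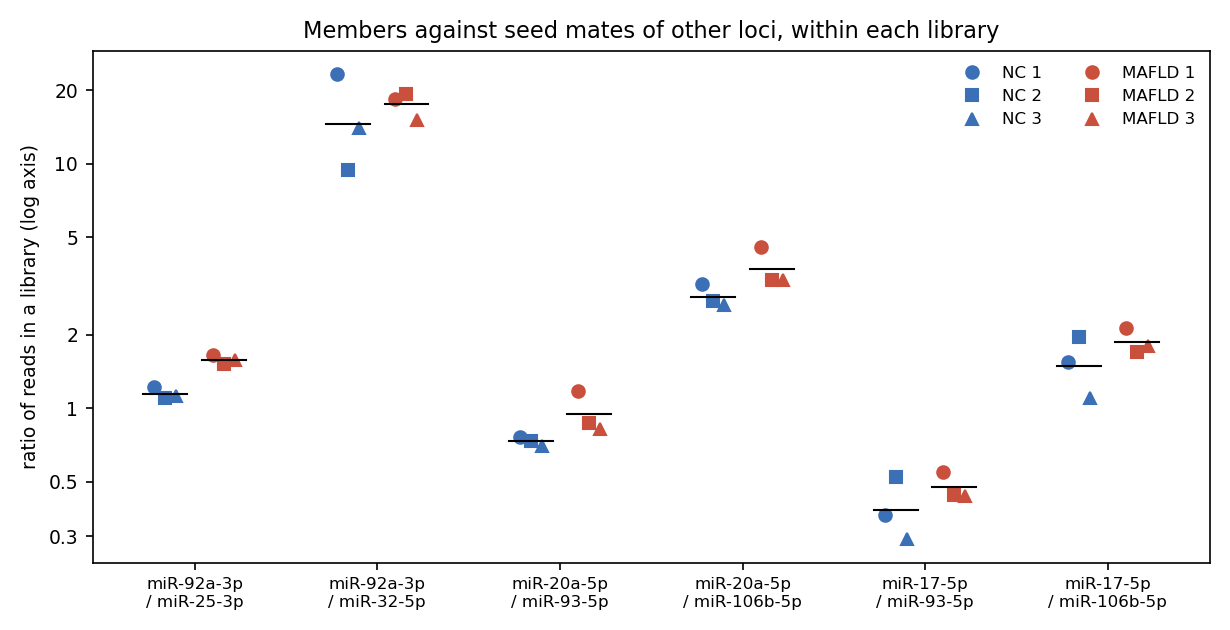
Ratio of the reads of a member to those of a strand with the same seed from another locus, within each library, on a log axis (NC blue, MAFLD red, symbols for replicates 1 to 3, black lines for the mean of the log values). The ratios of miR-92a-3p to miR-25-3p are 1.10 to 1.22 in NC and 1.52 to 1.66 in MAFLD libraries, the ratios of miR-20a-5p to miR-93-5p and miR-106b-5p also do not overlap, and the other 3 ratios do.

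As sums, the 9 members of miR-17-92 were 1.09, 1.09 and 1.06 times the miR-106b-25 strands in NC livers and 1.63, 1.40 and 1.42 times in MAFLD livers. The means were 1.08 ± 0.0173 and 1.48 ± 0.128 (SD, n = 3), a fold of 1.37. Most reads of the first sum were miR-92a-3p and most of the second were miR-25-3p. The fold therefore largely repeats that of the ratio between those strands, 1.38, and is not a separate result. The chromosome X cluster miR-106a-363, which holds Mir19b-2 and Mir92-2, was hardly read. Its 8 listed strands other than the shared ones summed to 2.24 to 5.10 CPM in NC livers and 2.56 to 9.38 CPM in MAFLD livers. Of its 3 tested strands, miR-20b-5p had 0 reads in all NC livers and 9, 4 and 3 reads in the MAFLD replicates. Those reads are 3.38, 0.854 and 1.95 CPM, and 0.854 is below the 3-read level of every NC library (1.18 to 2.24 CPM). The strand passed the filter only through the MAFLD livers, so its limma adjusted p of 0.212 was not read as a result. The miR-17-92 sum was 85.0 to 351 times that of miR-106a-363 in NC livers and 161 to 362 times in MAFLD livers.

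Markers of other liver cells were read beside these values, and their part in the result was not tested. Over all miRNAs tested, 13.4% were higher and 4.59% lower in MAFLD livers at an unadjusted p under 0.05. The 2 endothelial miRNAs were both higher at that level, and summed to 4710 to 6587 CPM in NC livers and 7659 to 10155 CPM in MAFLD livers. White blood cell miRNAs summed to 1616 to 3061 CPM in NC livers and 2223 to 3314 CPM in MAFLD livers, with 1 of 6 higher at that level. Red blood cell miRNAs summed to 602 to 1212 and 432 to 1001 CPM, with 0 of the 4 tested changed at an unadjusted p under 0.05. Stellate and mesenchymal miRNAs summed to 12612 to 30033 and 19775 to 26950 CPM, with 2 of 5 higher. Neuronal miRNAs summed to 50.1 to 744 CPM in NC livers, high in NC replicates 1 and 2, and to 44.2 to 63.9 CPM in MAFLD livers. None of the 4 neuronal miRNAs had a log2 fold change above 0, their median was -2.11, and 2 of them (miR-9-5p and miR-124-3p) were lower at an unadjusted p under 0.05.

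The members followed each other across the 6 libraries, which share the scaling of each library and the difference between the diets. Over these 6 points of log2(CPM + 1), Pearson's r was 0.992 between miR-17-5p and miR-19b-3p and 0.988 between miR-20a-5p and miR-92a-3p. For miR-19a-3p and miR-17-5p it was 0.645, and the lowest was 0.416, between miR-17-3p and miR-18a-5p. The 5 other tested miRNAs whose pattern was most like that of the members' sum were miR-34a-5p (r = 0.997), let-7d-5p, let-7b-5p, miR-3073b-3p and let-7c-5p (r = 0.991), over the same 6 libraries. MiR-34a-5p, known as a target of p53, was at 30.6, 29.3 and 56.1 CPM in NC livers and 141, 74.1 and 98.4 CPM in MAFLD livers. Its 6 libraries fall in the same order of level as those of miR-92a-3p.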

How the data were processed

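Small RNA from 3 NC and 3 MAFLD mouse livers was sequenced. The deposited values are CPM, in which the authors scaled the reads of 1546 miRNAs to 1 total per library. The submitters' processing notes name FastQC, cutadapt, Bowtie, edgeR and GRCm38, without versions. The authors' own comparison columns were not used. Whole reads were recovered by dividing by the smallest value above 0 of each library (100% within 0.02 of a whole number).

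Groups came from the labels. Log2(CPM + 1) of 501 miRNAs, those whose mean reached 1 CPM, was compared with limma 3.58.1 in R 4.3.3 (moderated, with trend), two-sided, with Benjamini-Hochberg adjustment at 0.05. Ratios of reads (0.5 added) were compared by two-sided exact permutation tests in scipy 1.17.1. Permutation p-values place the group difference among all ways of labelling these livers. With 3 against 3 they cannot fall below 0.1, whatever the spread within groups. Limma p-values rest on the spread between these livers and, through moderation, on the spread of the other miRNAs. Alternatives were 2 other pseudocounts, 2 other filters, other scalings, edgeR 4.0.16 and DESeq2 1.42.0 on recovered reads, a replicate block and leaving out each library. Tested on simulated data with 200 of 501 miRNAs changed 4-fold, limma recovered 59%. The summed level of the members differed by a smaller ratio, 2.17, so this share is not the power for the differences reported here. The text names the 9 members, the other strands of their hairpins, strands of the same seed and of the 2 paralogous clusters, and the 5 most similar miRNAs. Members and lists were chosen with earlier results of these data known. Sequences are RefSeq's, GRCm38.p6 (9 of 9 matched).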

Additional observations from a re-analysis of the deposited data

How the results depend on the processing

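Log2 fold changes of the tested members were above 0 in each of the 18 alternatives (17 for miR-17-3p and miR-18a-5p, which a filter at 10 CPM removed), but how many passed a threshold varied. At an adjusted p under 0.05 the count was 0 (1 of all 501 miRNAs), 1 with DESeq2 on the recovered reads (28 of all), and 0 to 4 with 1 library left out, the 4 being reached without NC replicate 3 (114 of all). At an unadjusted p under 0.05 the count was 4, 2 with quantile normalization, and 1 (without MAFLD replicate 1) to 5 (without NC replicate 3) with 1 library left out. Over all miRNAs 67, 38, 21 and 150 were higher at that level in the same order. In these settings the members' counts rose and fell with those of the whole table. They did not in others, as edgeR kept 4 members with 37 of all higher, and DESeq2 kept 3 with 29. The median log2 fold change of 1.04 became 0.58 with median-ratio scaling, 0.60 with quantile normalization and 0.60 with DESeq2.

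With the replicate number as a block, 0 members passed the adjusted and 4 the unadjusted threshold, and the median stayed at 1.04. The deviations of same-numbered livers correlated at 0.012, -0.020 and -0.046, and they were different mice. Paired by number, 3 of 6 strand ratios and 6 of 15 main-strand ratios moved the same way in all pairs, against 1 and 2 whose groups did not overlap. With 1 added to the reads, 2 strand ratios did not overlap. With 1 library left out, 1 to 4 strand ratios, 2 to 7 main-strand ratios and 5 to 8 of the 12 seed-mate ratios did not overlap, where fewer libraries make separation easier. Depth limits miR-18a-5p and the passenger strands, which rest on 0 to 14 reads in a library. Reads do not separate the 2 loci of miR-19b-3p and miR-92a-3p.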
